A study of Mus musculus with 52 samples.

Results

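The 10 primary mouse osteosarcomas with the highest proliferation score were set against the 10 with the lowest, out of 31 tumours that could be ranked and 52 RNA-seq libraries in the whole series. The score was the mean of log2(CPM + 1) of 5 genes that mark dividing cells, Mki67, Top2a, Ccnb1, Cdc20 and Plk1, with CPM (counts scaled to each library's total count). Tumours were thus chosen by measured RNA levels of these 5 genes. Ranking used the 34 libraries whose column names lack the prefix R1002-, and left out 3 of them in which Col1a1, the gene of the main bone collagen chain, was under 13 on the log2 CPM scale. Scores were 6.35 at the lowest, 6.71 at the median and 7.24 at the highest of the 10 high tumours, and 4.91, 5.67 and 5.89 at the same points of the 10 low tumours. The gap between the groups is a product of the ranking and was not tested. At the borders, tumour 1827 was the last high tumour at 6.35 and tumour 941 fell just outside at 6.34, while tumour 383 was the last low tumour at 5.89 and tumour 5798 fell just outside at 5.99. The other 11 tumours formed the middle of the ranking. The 5 score genes are left out of all results below.

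Tumours came from mice of 3 genotypes at Trp53, the gene of the tumour suppressor p53. The high group held 3 p53R172H/fl, 4 p53R245W/fl and 3 p53fl/fl tumours, against 3, 2 and 5 of the same genotypes in the low group. The 3 tumours left out for low Col1a1 (1831, 1835 and 1580) were all p53R245W/fl, at scores of 6.82, 6.99 and 6.03. In p53R172H/fl and p53R245W/fl mice 1 allele carries the named missense change and the other is conditional, and in p53fl/fl mice both alleles are conditional. Every tumour thus carried at least 1 conditional Trp53 allele and the series has no wild-type group. The sources used here do not name the Cre driver or the age and sex of the mice. RNA came from flash-frozen bulk tumour, so that fewer cells of a type and less RNA per cell cannot be told apart.

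Total counts were 42828952 to 67223388 per high tumour and 38251440 to 58650111 per low tumour. Column name prefixes placed 4 high and 4 low tumours in one library set (FM, FNM, WFM and WFNM) and 6 high and 6 low tumours in another (R553). Lane numbers in the column names put the first set on lane L001, and of the second set 2 high and 4 low tumours on L003, 3 high and 0 low on L004 and 1 high and 2 low on L005. A group of markers of osteoblasts and bone matrix, with 29 tested genes beside Col1a1, summed to between 25520 and 62730 CPM in high tumours and between 31910 and 116600 CPM in low tumours, and none of them was near 0 in both groups. Y-linked RNA separated the groups in part. Ddx3y, an RNA helicase gene of the Y chromosome, was over 5 CPM in 7 of 10 high tumours and in 0 of 10 low tumours. In those 7 tumours the sum of 4 Y-linked genes (Kdm5d, Eif2s3y, Ddx3y and Uty) lay between 53.4 and 220 CPM, against at most 0.223 CPM in the high tumours 622, 1441 and 1575 and at most 0.672 CPM in every low tumour. Xist, the RNA of the inactive X chromosome, was between 1.31 and 121 CPM in the same 7 tumours, between 865 and 1085 CPM in the other 3 high tumours and between 297 and 1744 CPM in low tumours. Values with this difference taken into account stand beside the results.

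**Figure D1:**
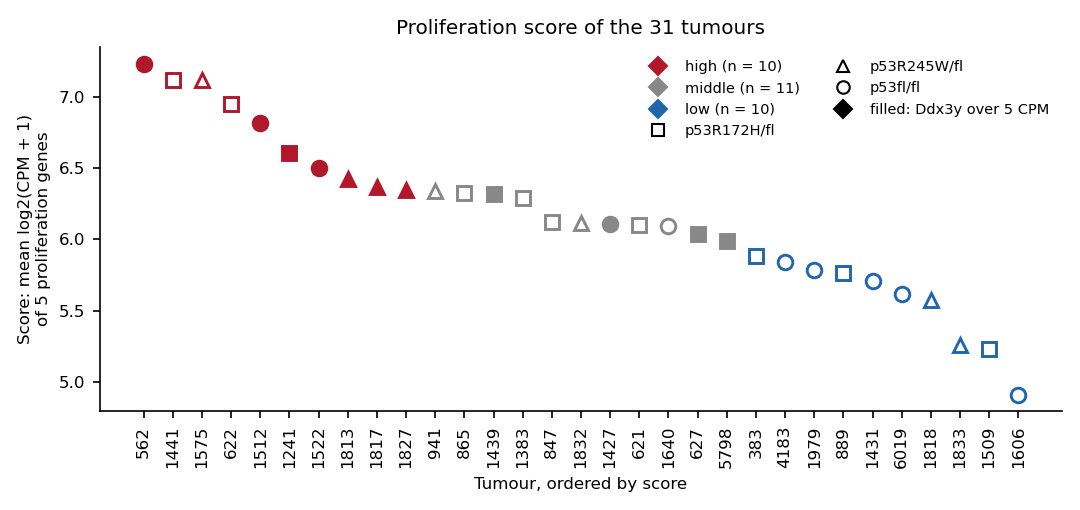
Proliferation score (mean log2(CPM + 1) of the 5 score genes, vertical axis) of the 31 ranked tumours, ordered along the horizontal axis. Colour gives the class, shape the genotype, and filled points the tumours with Ddx3y over 5 CPM, of which there are 7 in the high, 4 in the middle and 0 in the low class.

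Dividing cells switch on their genes in 2 main waves. E2F factors, released when cyclin-dependent kinases phosphorylate the Rb family, drive the genes of DNA synthesis before S phase. Later, the MuvB core with Mybl2 and Foxm1 drives the genes of mitosis through a promoter element called CHR (cell cycle genes homology region), often with CCAAT boxes bound by NF-Y. In resting cells, or after p53 induces the kinase inhibitor p21, the same core joins E2F4 and an Rb relative to form the DREAM complex, which represses both sets. Osteosarcoma is a bone cancer of cells of the osteoblast lineage that lay down bone matrix, and loss of p53 function is among its most frequent lesions.

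Many genes of the cell cycle were higher in high tumours, among them genes of the spindle, of replication, of repair and of condensin. Genes that were lower were fewer, and included neutrophil genes and single genes of the matrix and cartilage lists. With genotype as a covariate, edgeR's quasi-likelihood test with Benjamini-Hochberg adjustment called 223 of 19616 genes (1.14%) at an adjusted p under 0.05. Of these, 160 (0.816%) were higher and 63 (0.321%) lower in high tumours. The median log2 fold change was 0.97 among the genes called higher, -2.12 among those called lower and -0.02 over all genes tested. Since the tumours were ranked by 5 genes of cell division, genes that vary with those 5 across tumours are bound to differ between the classes, and their counts describe the ranking. The number called rested on single tumours. It was 117 without high tumour 622, 126 without 1512, 130 without 1441, 144 without 1575 and 146 without 562, and 114 without low tumour 1833, 131 without 1509 and 148 without 889.

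Within each library set the number of tumours was small, and 0 genes were called by edgeR in either, 4 high against 4 low in set FM/FNM/WFM/WFNM (1118 genes at an unadjusted p under 0.05) and 6 against 6 in set R553 (2572 genes). Fold changes of 4 leading genes kept their sign. These genes were picked from the pooled tumours that the 2 sets divide, so the shared sign is not separate evidence. In those 2 sets Prc1 was at 1.14 (SE 0.27) and 1.13 (SE 0.23), Brca1 at 1.05 (SE 0.21) and 1.07 (SE 0.24), Aox1 at -2.11 (SE 0.34) and -1.43 (SE 0.29) and Matn4 at -3.29 (SE 1.58) and -3.48 (SE 0.60) on the log2 scale. Medians over the mitosis list were 0.99 and 0.82, over the replication list 0.66 and 0.85, and over the neutrophil list -2.47 and -3.77. The Wnt list had medians of opposite sign, 0.28 and -0.75.

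With lane as a further covariate, an alternative chosen after seeing the data, 51 genes were called by edgeR in place of 223, 45 of them higher and 6 lower. The mitosis list then had 9 calls with a median log2 fold change of 0.83, the replication list 7 with 0.65, the repair list 4 with 0.81 and the chromatin list 4 with 0.69, all higher. Of the 45 named genes past the threshold 23 were still called, each in the same direction, among them Prc1 (1.09, adjusted p 0.0176), Brca1 (1.07, adjusted p 0.0111), Mcm10 (1.19, adjusted p 0.0111) and Bub1 (1.14, adjusted p 0.0266). Those no longer called were E2f8, Mybl2, Cks1b, Cks2, Nasp, Gtse1, Blm, Shmt1, Dcc and Rtl6 among the rises and Ltf, Cd177, Camp, S100a8, S100a9, Col6a5, Cadps, Capn8, Masp1, Matn4, Bgn and Wif1 among the falls. Aox1 was the 1 named fall that was still called (-1.61, adjusted p 0.0157). Genotype p53R245W/fl and the lanes L004 and L005 together cannot be told apart, and the part of lane in the other changes was not tested.

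Promoters of the genes called higher held letters of the 3 elements named above more often than promoters at large. Promoter windows ran from 250 bases before to 50 bases after the start given by RefSeq. Only genes with that start within 500 bases of the GENCODE gene start were used. This left 115 of the 160 genes called higher, 36 of the 63 called lower and 10933 of all tested genes. CHR was searched as TTTGAA or TTCGAA, the CCAAT box as CCAAT, and the E2F element as TTTGGCGC, TTTCCCGC, TTTCGCGC or TTTGCCGC, each on both strands, and no motif is contained in another. CHR letters stood in 45.2% of windows of genes called higher, 5.56% of those called lower and 14.03% of all. CCAAT letters stood in 61.7%, 30.6% and 38.5% of the same sets, and E2F letters in 21.7%, 2.78% and 3.93%. CHR and CCAAT together stood in 28.7% of windows of genes called higher, 0% of those called lower and 5.77% of all. These shares are descriptions without a test, and a match is not a binding site. Tumours were ranked by genes of cell division, so an excess of cell cycle elements among genes called higher describes the ranking.

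Windows of 5 genes called higher are printed 5′ to 3′ on the strand of the gene, from RefSeq on GRCm38.p6, to show the elements in genes of mitosis (Bub1, Prc1 and Ncapg), in a regulator (E2f8) and in a gene of replication (Mcm3). Capitals mark the letters found. In the first 4, capitals are CHR and CCAAT (on either strand, so that CCAAT may read ATTGG and TTTGAA may read TTCAAA), and in Ncapg also E2F. In Mcm3 only the E2F letters are in capitals, its CCAAT letters are left in lower case, and its window has no CHR. Bub1 lies at chr2:127831810-127832109 on the minus strand, Prc1 at chr7:80294201-80294500 on the plus strand and Ncapg at chr5:45669675-45669974 on the plus strand. E2f8 lies at chr7:48881547-48881846 and Mcm3 at chr1:20820263-20820562, both on the minus strand.
Bub1: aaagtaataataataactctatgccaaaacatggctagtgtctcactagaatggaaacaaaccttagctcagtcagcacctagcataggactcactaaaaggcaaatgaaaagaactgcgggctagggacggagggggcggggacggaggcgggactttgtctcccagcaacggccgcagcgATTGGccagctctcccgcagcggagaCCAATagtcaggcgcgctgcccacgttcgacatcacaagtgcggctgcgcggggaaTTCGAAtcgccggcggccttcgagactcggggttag
Prc1: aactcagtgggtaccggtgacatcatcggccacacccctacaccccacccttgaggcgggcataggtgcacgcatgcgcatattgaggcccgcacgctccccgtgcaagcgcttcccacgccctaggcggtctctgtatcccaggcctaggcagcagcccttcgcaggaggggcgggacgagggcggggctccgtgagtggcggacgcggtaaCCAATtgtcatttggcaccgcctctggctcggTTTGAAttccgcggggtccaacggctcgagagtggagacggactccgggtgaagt
Ncapg: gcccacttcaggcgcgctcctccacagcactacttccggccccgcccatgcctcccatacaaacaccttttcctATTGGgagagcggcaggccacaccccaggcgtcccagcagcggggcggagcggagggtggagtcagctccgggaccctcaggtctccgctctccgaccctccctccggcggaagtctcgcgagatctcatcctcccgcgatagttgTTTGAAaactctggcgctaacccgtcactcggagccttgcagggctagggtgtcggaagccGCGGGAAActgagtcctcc
E2f8: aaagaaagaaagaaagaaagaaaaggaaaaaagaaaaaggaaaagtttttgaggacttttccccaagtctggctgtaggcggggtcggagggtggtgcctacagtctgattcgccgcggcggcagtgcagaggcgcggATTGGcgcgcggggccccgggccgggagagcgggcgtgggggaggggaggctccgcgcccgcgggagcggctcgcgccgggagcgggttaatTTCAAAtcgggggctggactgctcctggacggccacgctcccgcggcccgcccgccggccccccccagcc
Mcm3: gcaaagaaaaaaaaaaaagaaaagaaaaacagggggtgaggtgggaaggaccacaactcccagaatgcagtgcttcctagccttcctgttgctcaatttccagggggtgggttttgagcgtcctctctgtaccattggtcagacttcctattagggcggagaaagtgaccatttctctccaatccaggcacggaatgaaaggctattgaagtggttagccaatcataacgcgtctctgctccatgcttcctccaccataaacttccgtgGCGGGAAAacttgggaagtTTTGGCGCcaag
Counted from the start, the first base of the CHR letters was at 15 in Bub1, at -5 in Prc1, at -30 in Ncapg and at -20 in E2f8, so that all 4 lay within a short distance of the start. CCAAT letters lay upstream of CHR in each of the 4, at -68 and -42 in Bub1, -37 in Prc1, -176 in Ncapg and -112 in E2f8. The 2 E2F matches of Mcm3 lay downstream of the start, at 20 and 39.

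Genes of mitosis and the spindle held more calls than any other list. Of 50 tested members of this list, 27 rose, 0 fell and 23 were not called, and the median fold change was 0.87 on the log2 scale against -0.02 for all genes. Prc1, which bundles the antiparallel microtubules of the central spindle, was at 50.1, 80.2 and 144 CPM (lowest, median and highest) in high tumours and at 34.5, 41.7 and 54.0 CPM in low tumours. All high tumours but 1827 were above every low tumour, and the log2 fold change was 1.12 (adjusted p 0.00247 by edgeR, SE 0.15). Kif2c, a kinesin that removes tubulin from microtubule ends at the centromere, had 32.6, 38.1 and 54.6 CPM in high tumours and 12.8, 19.7 and 27.6 CPM in low tumours. The groups did not overlap, with a log2 fold change of 1.08 (adjusted p 0.00333 by edgeR, SE 0.16). Bub1, a kinase of the spindle checkpoint, was at 34.7, 45.7 and 64.7 CPM in high tumours and 13.5, 21.2 and 33.6 CPM in low tumours. Here too the groups did not overlap, although the lowest high tumour and the highest low tumour were close, and the fold change was 1.09 (log2, adjusted p 0.00758 by edgeR, SE 0.19). Plk4, the kinase that starts centriole duplication, was at a median of 54.2 CPM in high and 31.2 CPM in low tumours, a log2 fold change of 0.98 (adjusted p 0.00362 by edgeR). The widest change among the called members was that of Ttk, the checkpoint kinase Mps1 (1.33), and the smallest that of Mad2l1, a checkpoint protein that inhibits the anaphase-promoting complex (0.61).

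Complete separation of the groups was rare. In 11 of 19616 tested genes (0.0561%) every high tumour was above every low tumour, and in 1 gene (0.0051%) every high tumour was below. The 11 were Kif11, Kif2c, Bub1, Knl1, Knstrn, Birc5 and Melk of mitosis, the condensin genes Ncapg and Ncaph, the Fanconi gene Fanci, and Slc17a7, which codes for a vesicular glutamate transporter. Slc17a7 was far lower than the others, between 0.14 and 5.88 CPM in high tumours and between 0 and 0.139 CPM in low tumours. The 1 gene in the other direction was Gm42490, at most 0.15 CPM in high tumours and at least 0.193 CPM in low tumours. Knstrn, Birc5, Slc17a7 and Gm42490 and the other genes of this paragraph were singled out after their values were seen.

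Removing 1 tumour kept the mitosis count at 15 to 32 genes. It was 17 without high tumour 562 or without high tumour 622, and 15 without low tumour 1833, against 27 with all tumours. With 6 against 6 tumours it was 17, and with a score without Cdc20 it was 10. Prc1, Kif2c, Bub1 and Plk4 were called in each of the 20 fits that left out 1 tumour.

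**Figure D2:**
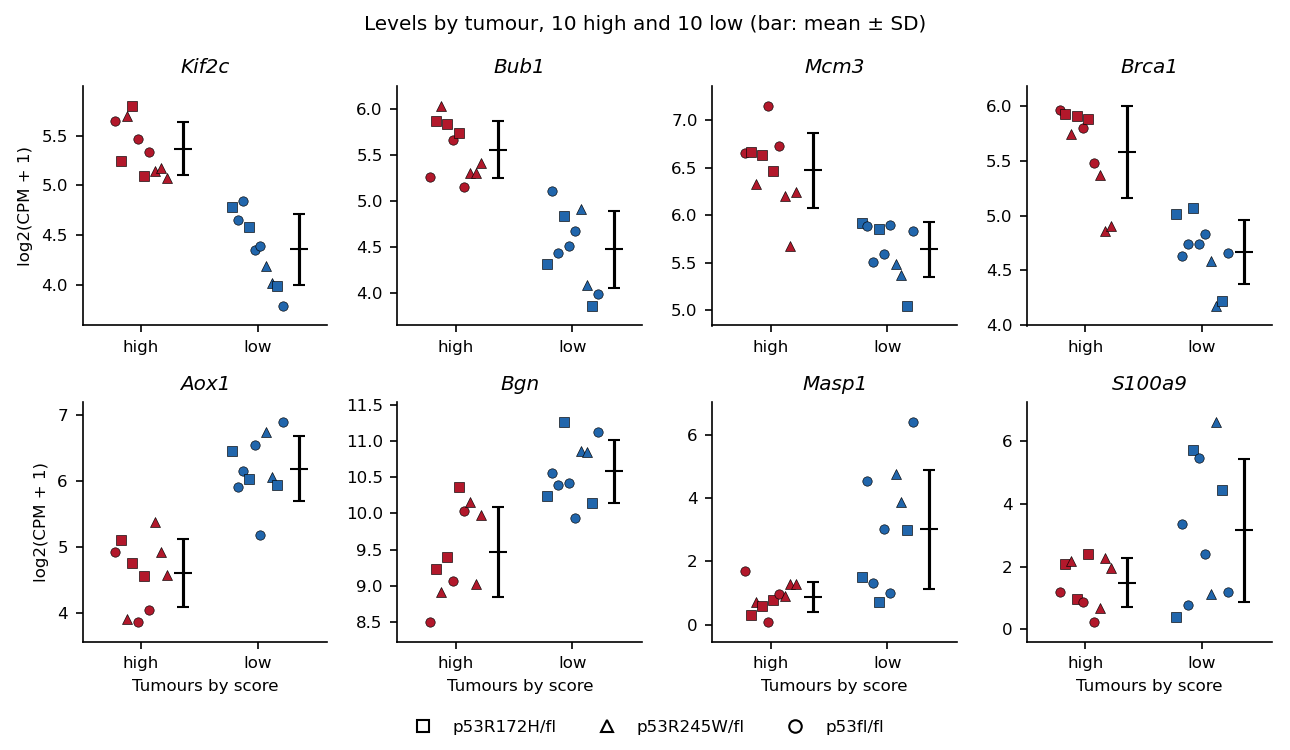
Level of 8 genes in each tumour as log2(CPM + 1), with high tumours left and low tumours right in each panel, shape giving the genotype and bars the mean ± SD over 10 tumours. Kif2c and Bub1 do not overlap between the groups, Mcm3, Brca1, Aox1 and Bgn overlap at the border, and Masp1 and S100a9 spread widely in low tumours.

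Replication genes moved in the same direction. Of 50 tested members, 21 rose, 0 fell and 29 were not called, and the median fold change was 0.68 (log2). The helicase that opens replication origins was covered broadly, since Mcm2, Mcm3, Mcm4, Mcm5, Mcm6 and Mcm7 were all called. Mcm3 was at 49.9, 93.0 and 141 CPM in high tumours and 32.04, 51.5 and 59.6 CPM in low tumours. Only the high tumour 1817 was within the range of the low tumours, and the log2 fold change was 0.95 (adjusted p 0.00247 by edgeR, SE 0.14). Mcm10, which helps to activate that helicase, was at a median of 31.3 CPM in high and 14.2 CPM in low tumours, with ranges that overlapped, and its log2 fold change was 1.15 (adjusted p 0.00247, SE 0.16). Pold1, the catalytic subunit of polymerase delta, had medians of 42.7 CPM in high and 22.1 CPM in low tumours and a log2 fold change of 1.01 (adjusted p 0.00562, SE 0.16). Largest in the list were the origin licensing factors Cdc6 (1.29) and Orc1 (1.25) and the primase subunit Prim1 (1.24). Pcna, the sliding clamp of replication, was not called, with a log2 fold change of 0.38 and an adjusted p of 0.173 by edgeR. The count of 21 was 13 without high tumour 562, 12 without 622, 13 without low tumour 1509, 14 without 1818 and 12 without 1833. It was 10 without the genotype covariate, 13 for a split at the median score and 4 with a score without Cdc20.

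Genes of homologous recombination and of repair at stalled forks followed. Of 30 tested members 14 rose and 0 fell, with a median log2 fold change of 0.79. Brca1, which directs recombination repair, was at 28.1, 53.7 and 61.7 CPM in high tumours and 17.1, 25.0 and 32.7 CPM in low tumours. The 2 high tumours inside the range of the low ones were 1817 and 1827, both p53R245W/fl, and the log2 fold change was 1.04 (adjusted p 0.00247 by edgeR, SE 0.14). Exo1, an exonuclease that resects broken ends, had the largest fold change of the list, with 7.04, 25.4 and 42.5 CPM in high tumours and 4.94, 8.98 and 19.2 CPM in low tumours. Its ranges overlapped and the log2 fold change was 1.59 (adjusted p 0.00562, SE 0.26). Polq, the polymerase of microhomology end joining, rose by 1.16 (log2, adjusted p 0.00758) and Fanci by 1.05 (log2, adjusted p 0.00788), both by edgeR. Blm, the helicase mutated in Bloom syndrome, rose by 1.24 (adjusted p 0.016) and was also the only called member of 30 in a list of genes linked to osteosarcoma. Gen1, a nuclease that cuts Holliday junctions, was on no list and was at a median of 10.8 CPM in high and 3.88 CPM in low tumours, a log2 fold change of 1.46 (adjusted p 0.00616, SE 0.24). Atr and Atm, the kinases that sense damaged DNA, were not called at log2 fold changes of 0.16 and 0.37. The count of 14 was 8 without any 1 of the high tumours 562, 622 and 1512, and 9 without low tumour 1509, 7 without 1833 and 9 without 1979. It was 6 with a score without Cdc20 and 9 with the erythroid list as covariate.

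Chromosome condensation and new chromatin were the next group. Of 28 tested members 9 rose and 0 fell, with a median of 0.68. Condensin, the ring complex that compacts mitotic chromosomes, was represented by Smc2, Smc4, Ncaph, Ncapg, Ncapd2 and Ncapg2. Smc2 had 78.1, 101 and 124 CPM in high tumours and 39.5, 52.7 and 78.3 CPM in low tumours, so that 9 high tumours were above all low ones, and its log2 fold change was 0.88 (adjusted p 0.00592 by edgeR, SE 0.14). Ncaph had 31.7, 38.03 and 52.8 CPM in high tumours and 13.9, 22.6 and 26.1 CPM in low tumours, without overlap, and a log2 fold change of 0.93 (adjusted p 0.0041, SE 0.14). Cohesin, which holds sister chromatids together, did not give a call, with log2 fold changes of 0.14 for Smc1a, 0.20 for Smc3 and 0.33 for Rad21. Nasp, a chaperone of histones H3 and H4, rose by 0.82 (log2, adjusted p 0.00773, SE 0.14). The count of 9 was 3 with a score without Cdc20, 14 for 8 against 8 tumours and 15 with TMM library sizes in the score or with DESeq2.

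Histone genes that are expressed in S phase were also among the calls. This set, the 59 genes with symbols of the histone clusters, was chosen after values were seen, and S-phase expression was not checked for each. Of its members 16 rose and 0 fell, with a median of 0.84. Hist1h3g, a gene of histone H3, was at 15.9, 29.3 and 41.2 CPM in high tumours and 7.58, 11.02 and 17.1 CPM in low tumours. The ranges overlapped in 2 high tumours, and the log2 fold change was 1.35 (adjusted p 0.00275 by edgeR, SE 0.20). Summed over the 59 genes, the level was 1881 to 5270 CPM in high and 1035 to 2287 CPM in low tumours. Many of these genes are near-identical copies within a histone family, and their mRNAs mostly lack a poly(A) tail. Single members are therefore uncertain in mRNA libraries.

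Regulators of these waves gave fewer calls than the lists of mitosis, replication, repair and chromatin. Of 20 tested E2F, Myb-MuvB and Rb family genes, E2f8 and Mybl2 rose and 0 fell, while 1.14% of all tested genes were called. The list median was 0.39, with 17 members above 0. E2f8, a repressor of the E2F family that is itself switched on in S phase, was at 6.84, 14.6 and 34.5 CPM in high tumours and 5.09, 8.58 and 11.4 CPM in low tumours. The ranges overlapped and the log2 fold change was 1.14 (adjusted p 0.0145 by edgeR, SE 0.22). Mybl2, the Myb protein of the MuvB complex, had medians of 20.7 and 10.1 CPM in high and low tumours and a log2 fold change of 1.03 (adjusted p 0.0259, SE 0.22), but lost its call without any 1 of tumours 1441, 1512, 622, 1509, 889, 1818 and 1833, which left 1 call in the list. Foxm1 was at 0.70 (adjusted p 0.144) and the activator E2f1 at 0.33 (adjusted p 0.48), both not called. Rb1, the retinoblastoma gene, was at -0.44 (adjusted p 0.342).

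Among 24 cyclins, kinases and inhibitors of G1, the small kinase subunits Cks1b and Cks2 rose and 0 fell, with a list median of 0.34. Cks1b was at 27.8, 34.1 and 78.6 CPM in high tumours and 16.4, 19.5 and 34.8 CPM in low tumours, with overlap, and its log2 fold change was 1.01 (adjusted p 0.016 by edgeR, SE 0.20). Cks2 was at a median of 14.8 CPM in high and 9.12 CPM in low tumours (log2 fold change 0.85, adjusted p 0.0386), and in 15 of the 20 fits without 1 tumour it was not called. Among the fits without 1 tumour, Cks1b lost its call in that without 1512 (adjusted p 0.0539). It was also not called within either library set, for 6 against 6 tumours (adjusted p 0.0705), for a split at the median (0.0586), with scores without Ccnb1 (0.0532) or Cdc20 (0.109), or with the neutrophil list (0.156), Y-linked RNA (0.0562) or lane (0.0821) as covariate. Ccne1, cyclin E1, had a log2 fold change of 1.13 and Skp2, which marks p27 for degradation, one of 1.12, at adjusted p of 0.0579 and 0.102. The D cyclins were at 0.09 (Ccnd1), -1.02 (Ccnd2) and 0.12 (Ccnd3), and the inhibitors at -0.37 (Cdkn1a) and 0.12 (Cdkn1b), none of them called.

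Trp53 was not called, and p53 target genes gave 1 call. Trp53 was at 13.6, 33.9 and 52.0 CPM in high tumours and at 8.82, 21.3 and 38.8 CPM in low tumours. The ranges overlapped over most of their length, with a log2 fold change of 0.33 (adjusted p 0.447 by edgeR, SE 0.18). Trp53 split by genotype, at 8.82 to 19.8 CPM in the p53fl/fl tumours and 22.3 to 52.0 CPM in the missense tumours. The high group held 3 p53fl/fl tumours and the low group 5, so the medians mix class with genotype, which the fit holds as covariate. Only 1.14% of all tested genes were called, so the lack of calls among most targets is not particular to p53. Of 32 tested p53 target genes 1 rose and 0 fell, and the median was 0.01. The 1 called was Gtse1, a microtubule-binding protein of G2 that is also cell cycle regulated, with a log2 fold change of 0.79 (adjusted p 0.0489), and 15 of the 20 fits without 1 tumour did not call it. Mdm2 was at 0.02 and the growth arrest target Ccng1 at -0.38, both not called. Myc was at 13.7, 71.8 and 404 CPM in high tumours and 28.1, 49.8 and 332 CPM in low tumours, a log2 fold change of 0.29 (adjusted p 0.854, SE 0.44), and its sign turned to -0.0072 without high tumour 1441. Of 26 genes in a list of ribosome biogenesis and Myc 0 were called, with a median of 0.43 and 25 members above 0. The smallest adjusted p in that list was 0.0927, of Utp20, a factor of the small ribosomal subunit, at a log2 fold change of 0.86.

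Nucleotide and serine synthesis gave 1 call among 26 genes. Shmt1, the cytosolic enzyme that passes a carbon unit from serine to folate, was at 9.32, 28.5 and 53.1 CPM in high tumours and 5.81, 9.94 and 22.1 CPM in low tumours. The ranges overlapped and the log2 fold change was 1.52 (adjusted p 0.0218 by edgeR, SE 0.32), with no call without any 1 of tumours 1441, 1512, 1818 and 1833. Oxidative phosphorylation (30 genes, median 0.06), hypoxia and glycolysis (25, -0.05), cholesterol synthesis (22, -0.07), interferon response (26, -0.36), TGF-beta and BMP signalling (30, -0.26) and imprinted growth genes (18, 0.63) had 0 calls in either direction. In the same order, 23, 10, 10, 1, 9 and 14 members were above 0.

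**Figure D3:**
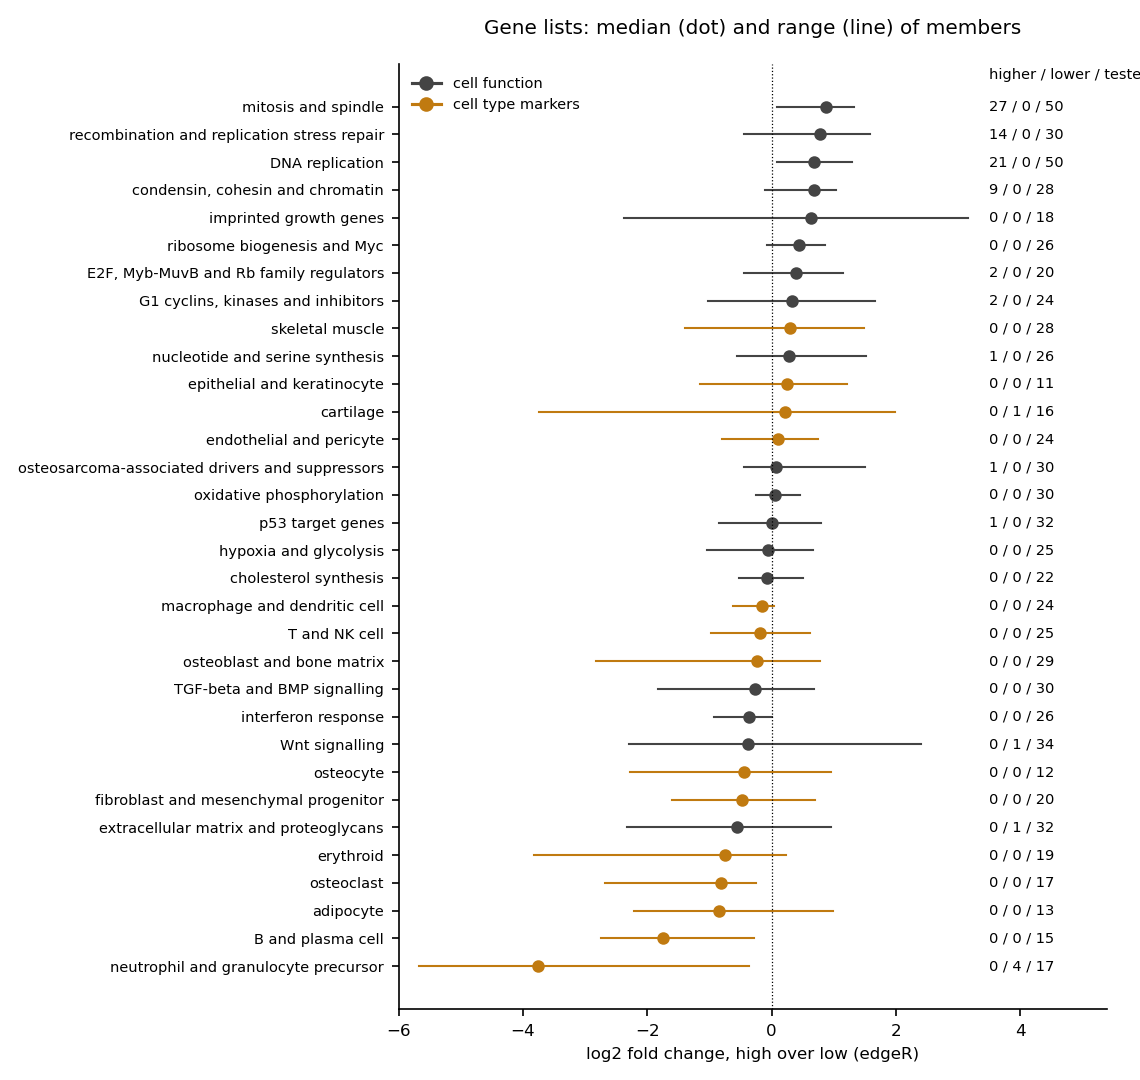
Median (dot) and range (line) of the log2 fold changes, high over low, of the tested members of 32 gene lists, with the numbers of members higher, lower and tested at the right. The lists of mitosis, repair, replication and chromatin lie at the top with 27, 14, 21 and 9 members higher, and the neutrophil list lies at the bottom with 4 of 17 lower.

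Genes that fell in high tumours included single genes of the bone and cartilage matrix and of signalling outside the cell. Of 32 genes of matrix and proteoglycans 0 rose and 1 fell, with a median of -0.55 on the log2 scale. Bgn, biglycan, a small proteoglycan of bone matrix, was at 362, 636 and 1321 CPM in high tumours and 976, 1436 and 2454 CPM in low tumours. The 4 highest of the high tumours reached into the low range, and the log2 fold change was -1.11 (adjusted p 0.0343 by edgeR, SE 0.25). It was not called in 10 of the 20 fits that left out 1 tumour, namely those without 1441, 1512, 1575, 1817, 562, 622, 889, 1818, 1833 or 1606. Col1a1, which was used to admit tumours to the ranking, had a log2 fold change of -1.03. Other bone genes were not called. Sparc, osteonectin, was at a median of 6327 CPM in high and 13004 CPM in low tumours (log2 fold change -0.98, adjusted p 0.108), and Dmp1, a matrix protein of osteocytes, at medians of 30.1 and 130 CPM in high and low tumours (-1.73, adjusted p 0.239). Dcn, decorin, was at medians of 125 and 468 CPM in the same order of groups (-1.94, adjusted p 0.0552). Of 29 genes in the osteoblast list and 12 in the osteocyte list 0 were called, with medians of -0.24 and -0.44.

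Matn4, matrilin 4, an adaptor protein of cartilage matrix, was the 1 called gene of 16 in the cartilage list. Most of that list went the other way, with a median log2 fold change of 0.21 and 12 members above 0. Matn4 was at 0.165, 6.10 and 15.4 CPM in high tumours and 4.18, 60.1 and 269 CPM in low tumours. Low tumours 383 and 1431 were inside the range of the high tumours and the other low tumours above it, with a log2 fold change of -3.74 (adjusted p 0.0126 by edgeR, SE 0.71) and a call in all 20 fits without 1 tumour. Matn4 was not called with scores without Mki67, Top2a or Plk1 (-3.17, -3.30 and -3.31), for 6 against 6 tumours (-4.10), for a split at the median score (-2.36, adjusted p 0.246), with tumours of low Col1a1 kept (-2.99, adjusted p 0.394), within either library set, or with the neutrophil list (-3.69), Y-linked RNA (-4.11) or lane (-3.83) as covariate. Wif1, a secreted inhibitor of Wnt ligands, was the 1 called gene of 34 in the Wnt list. It was at 4.41, 59.5 and 158 CPM in high tumours and 74.0, 265 and 790 CPM in low tumours, with overlap. Its log2 fold change was -2.30 (adjusted p 0.0344, SE 0.52), and 10 of the 20 fits without 1 tumour, those without 1575, 1813, 1817, 562, 622, 4183, 1509, 889, 1818 or 1833, did not call it. Bmp3, an antagonist among the bone morphogenetic proteins, was at -1.82 (adjusted p 0.0552) and was not called.

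Outside the lists, Aox1, aldehyde oxidase, had one of the 8 smallest p-values. It was at 13.6, 24.5 and 40.8 CPM in high tumours and 35.4, 68.1 and 118 CPM in low tumours. No high tumour reached the median of the low tumours, and the log2 fold change was -1.68 (adjusted p 0.00247 by edgeR, SE 0.24) with a call in all 20 fits without 1 tumour. Masp1, a serine protease of the lectin pathway of complement, was at 0.0661, 0.794 and 2.25 CPM in high tumours and 0.655, 7.03 and 83.6 CPM in low tumours. Low tumours 383, 889, 1979 and 6019 shared the range of the high ones, and the log2 fold change was -3.81 (adjusted p 0.0184, SE 0.78), with no call without low tumour 1509. Capn8, a calpain protease, was at most 0.377 CPM in high tumours and between 0.279 and 4.67 CPM in low tumours (-3.92, adjusted p 0.011). Col6a5, a collagen VI chain, was at a median of 0.782 CPM in high and 4.42 CPM in low tumours, and low tumour 1818 alone reached 565 CPM. Its log2 fold change was -4.74 (adjusted p 0.011, SE 0.87) with all tumours and -3.82 without 1818, where it was not called. Cadps, a factor of vesicle release, was at most 0.562 CPM in every high tumour and reached 17.8 CPM in 1 low tumour (-4.46, adjusted p 0.0249), and was not called without high tumour 1512 or 562.

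Neutrophil genes were among the largest falls. Of 17 tested markers of neutrophils and their precursors 0 rose and 4 fell, and the median log2 fold change was -3.75, with 0 members above 0. Ltf, lactoferrin, was at 0.0375, 0.211 and 4.46 CPM in high tumours and at 0.0995, 6.75 and 61.7 CPM in low tumours (log2 fold change -5.37, SE 1.24, adjusted p 0.0385 by edgeR). S100a9, a subunit of calprotectin, was at 0.183, 2.10 and 4.34 CPM in high tumours and 0.324, 6.81 and 97.0 CPM in low tumours (-3.75, SE 0.88, adjusted p 0.0414). Low tumours 889, 1431, 1509, 1833 and 4183 were above the range of the high tumours in S100a9, and 383, 1606, 1818, 1979 and 6019 were inside it. Camp (-3.91) and S100a8 (-3.82) were the other calls, and Cd177, a neutrophil surface protein on no list, was at -5.16 with no call without low tumour 889 or 1833. Over the whole list the summed level was 11.97, 17.8 and 31.98 CPM in high tumours and 10.1, 45.1 and 418 CPM in low tumours. The precursor genes Ctsg, Ms4a3 and Fcnb had medians under 0.1 CPM in both groups. The 4 calls rested on single tumours. None was called without any 1 of high tumours 1441, 1512, 1575, 1813, 1817, 1827, 562 and 622 or low tumours 1509, 889 and 1833, 1 was called without 1522 or 1431, 2 without 6019, and 9 genes were called without low tumour 383.

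With the mean level of the neutrophil list as a further covariate, 18 genes were called in place of 223, of which 2 were in the mitosis list, 2 in the replication list and 1 in the repair list. The median fold changes of those lists were then 0.76, 0.59 and 0.75, against 0.87, 0.68 and 0.79 without the covariate. The part of neutrophils in the fall of these genes was not tested.

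Other cell type lists gave 0 calls. Median log2 fold changes were -1.74 for 15 markers of B and plasma cells, -0.82 for 17 osteoclast genes, -0.75 for 19 erythroid genes, -0.85 for 13 adipocyte genes, -0.18 for 25 genes of T and NK cells and -0.15 for 24 genes of macrophages and dendritic cells. They were 0.10 for 24 endothelial and pericyte genes, 0.30 for 28 skeletal muscle genes, 0.24 for 11 epithelial genes and -0.48 for 20 fibroblast genes. Summed levels of muscle markers were 126 to 9124 CPM in high and 592 to 11560 CPM in low tumours, and those of osteoclast markers 1345 to 17240 CPM in high and 1571 to 13550 CPM in low tumours. Both ranges overlapped widely. Median sums in high and low tumours were 2520 and 1998 CPM for muscle markers and 3814 and 7728 CPM for osteoclast markers. In the muscle list 19 of 28 members were above 0, against 0 of 17 in the osteoclast list and 0 of 15 in the B and plasma cell list.

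The largest rises were not genes of the cell cycle. Kdm5d, Eif2s3y, Ddx3y and Uty of the Y chromosome came first and were high in the 7 tumours named above. Dcc, a netrin receptor, was listed at 0 in 3 high tumours and 6 low tumours, was over 1 CPM in the high tumours 562, 1575, 622 and 1512 and was at most 0.32 CPM in low tumours. Its fitted log2 fold change of 6.09 (adjusted p 0.0494 by edgeR, SE 1.48) depends on how counts of 0 are handled, and 15 of the 20 fits without 1 tumour did not call it. Terc, the RNA template of telomerase, was at 0.381, 6.67 and 18.2 CPM in high tumours and 0.0208, 0.691 and 1.59 CPM in low tumours. The high tumours 562 and 1522 were in the range of the low ones and the other 8 above it, and the log2 fold change was 3.27 (adjusted p 0.0162, SE 0.66), with no call without 1512. Terc has no poly(A) tail, and the effect of mRNA selection on its level was not tested. Rtl6, a gene derived from a retrotransposon, was at a median of 7.18 CPM in high and 2.26 CPM in low tumours (1.81, adjusted p 0.0418), and 15 of the 20 fits without 1 tumour did not call it.

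Y-linked RNA and the class could be separated only in part, since low tumours with Y-linked RNA do not exist in the ranking. With Y-linked RNA (Ddx3y over 5 CPM) as a further covariate 91 genes were called, 87 of them higher and 4 lower. Median fold changes of the 4 cell division lists were larger in that fit. Prc1 was then at 1.41 (adjusted p 0.0159 by edgeR, SE 0.21), Brca1 at 1.27 (adjusted p 0.0159), Bub1 at 1.47 (adjusted p 0.0196) and Mcm3 at 1.05 (adjusted p 0.0291). The mitosis list then had 17 calls with a median of 1.10, the replication list 7 with a median of 0.94, the repair list 6 with 0.97 and the chromatin list 5 with 0.90, all higher. Of the named genes that fell, none was called in that fit. Fold changes with and without the covariate were -1.72 and -1.68 for Aox1 (adjusted p 0.0689 with it), -4.11 and -3.74 for Matn4 (0.179), -1.66 and -1.11 for Bgn (0.0729), -6.63 and -5.37 for Ltf (0.26) and -3.77 and -3.75 for S100a9 (0.369). Among the 3 high and 10 low tumours without Y-linked RNA, 0 genes passed the threshold by edgeR and 2209 had an unadjusted p under 0.05. Fold changes were 1.38 for Prc1, 1.26 for Brca1 (adjusted p 0.105 each), -1.65 for Aox1 (0.151) and -3.86 for Matn4 (0.237).

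**Figure D4:**
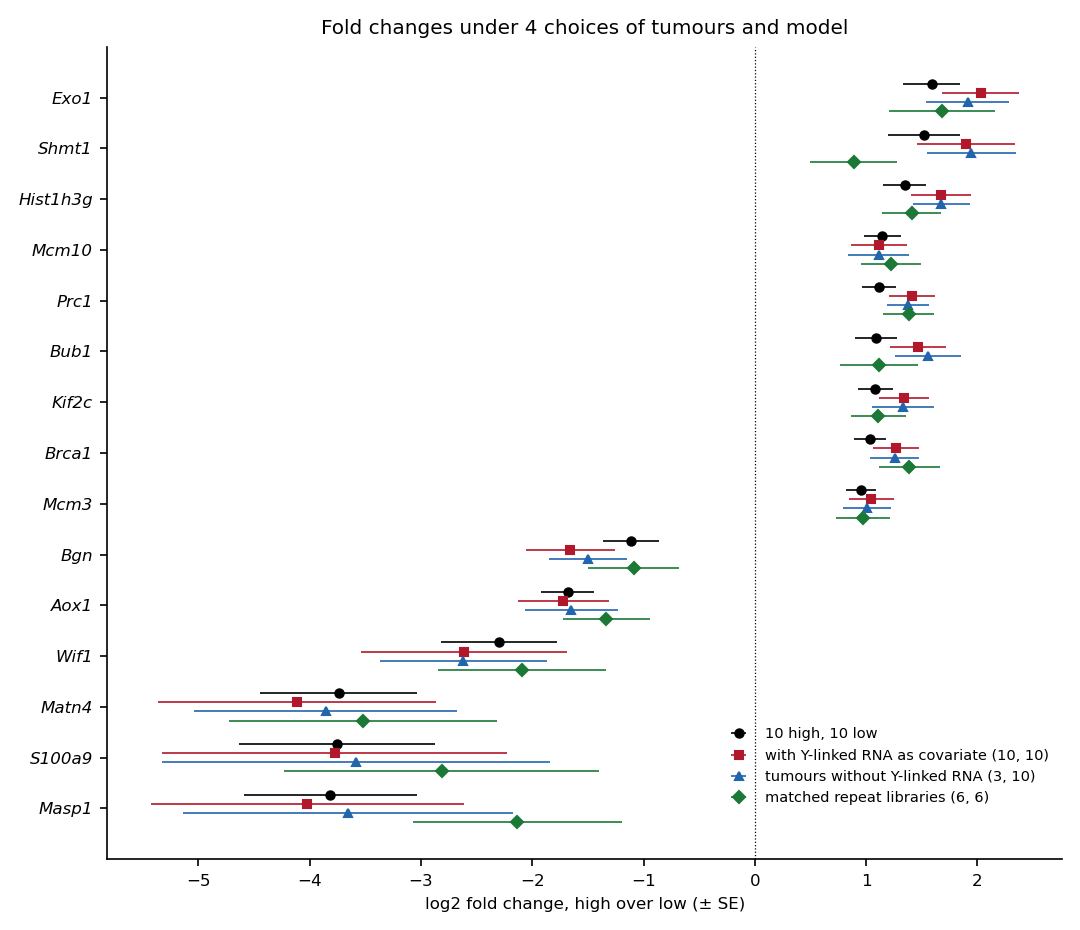
Log2 fold change, high over low, with its SE (horizontal axis) for 15 named genes under 4 choices of tumours and model, with the number of high and low libraries in brackets. The sign is the same under each choice for all 15 genes, as for Prc1 at 1.12 with all tumours and 1.38 without Y-linked RNA. The genes were named from results in these tumours, so the shared sign is not separate evidence.

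With the score as a number over all 31 tumours and genotype as a covariate, 701 of 20154 genes (3.48%) were called by edgeR, 544 rising with the score (2.7%) and 157 falling (0.779%). The tumours are those of the first comparison with the middle added, so the calls are not separate evidence. Prc1 rose by 0.85 per unit of score (log2, adjusted p 4.51e-08, SE 0.08) and Bub1 by 0.91 (adjusted p 3.54e-06, SE 0.11). Masp1 fell by 2.67 per unit (adjusted p 0.00505, SE 0.57) and Bgn by 0.97 (adjusted p 0.000433, SE 0.17). S100a9 was not called along the score (-2.37 per unit, adjusted p 0.12). By list, 45 of 50 mitosis genes, 35 of 50 replication genes, 19 of 30 repair genes and 16 of 28 chromatin genes rose with the score. Of the E2F, Myb-MuvB and Rb family genes 6 of 20 rose with it, and of the G1 genes 9 of 24. With Y-linked RNA as a further covariate the count was 461 genes, 388 rising and 73 falling.

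**Figure D5:**
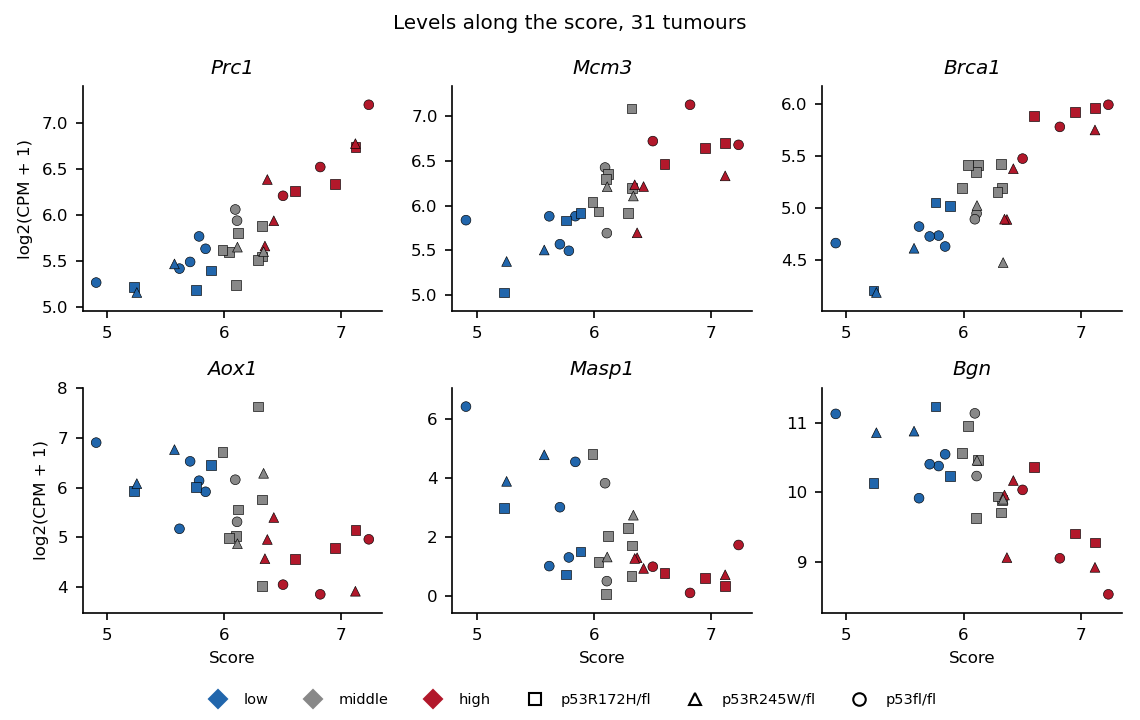
Level (log2(CPM + 1), vertical axis) of 6 genes against the score (horizontal axis) in 31 tumours, with colour for the class and shape for the genotype. Prc1, Mcm3 and Brca1 are higher toward the upper end of the score, while Aox1, Masp1 and Bgn are lower at its upper end and scatter widely in the middle.

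A repeat of the measurement was available in the libraries with the prefix R1002-. For matching, the mean of each library set and genotype was subtracted from log2(CPM + 1), so that correlations are of departures and not of whole profiles. Genes of the cell cycle lists, score genes and sex-linked genes were left out, as were genes under a mean of 5 CPM. Each of the 18 R1002- libraries had its highest Spearman correlation (0.624 to 0.917 across 11448 genes) with 1 library of its own genotype outside the prefix. That library in turn correlated best with it, while the second best was 0.216 to 0.394. The R1002- libraries are therefore read as further libraries of the same tumours, a match made from the data and not from the labels. Of the 18, 6 matched high, 6 low and 4 middle tumours, and 2 matched tumours 1831 and 1835, left out for low Col1a1. Their own scores were 6.07 to 7.14 in the 6 matched to high tumours and 4.87 to 5.81 in the 6 matched to low tumours, without overlap. Of the 4 matched to middle tumours, that of tumour 1439 scored 5.42, inside the range of the low ones, against 6.32 in its first library. The others of the 4 scored 6.02 to 6.15, which reached into the range of the high ones. Between these 6 and 6 libraries 0 of 19721 genes (0%) were called by edgeR, and 1622 had an unadjusted p under 0.05. The sign of the first comparison was found again in 158 of 159 genes called higher and in 61 of 62 called lower that had a value, in the same tumours. No share over all tested genes was taken to set beside these counts, and they are not separate evidence. Prc1 had a log2 fold change of 1.38 (SE 0.23), Brca1 of 1.39 (SE 0.27), Mcm3 of 0.97 (SE 0.24), Aox1 of -1.33 (SE 0.39) and Matn4 of -3.52 (SE 1.21). Along the score of 16 R1002- libraries, without the 2 of low Col1a1, 69 of 19567 genes (0.353%) were called, 67 rising (0.342%) and 2 falling (0.0102%), Prc1 by 0.92 (adjusted p 0.00835) and Brca1 by 0.94 per unit (adjusted p 0.0091).

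Differences in score between genotypes were within the spread between tumours. Its mean was 6.21 ± 0.49 in p53R172H/fl (SD, n = 13), 6.19 ± 0.57 in p53R245W/fl (SD, n = 8) and 6.06 ± 0.66 in p53fl/fl tumours (SD, n = 10). By two-sided permutation tests over the 3 pairs, the differences were 0.15 for p53R172H/fl minus p53fl/fl (p 0.55 by 100000 resamples), 0.13 for p53R245W/fl minus p53fl/fl (p 0.664, exact test) and 0.02 for p53R172H/fl minus p53R245W/fl (p 0.941, exact test). All 3 had an adjusted p of 0.941. With the p53R245W/fl tumours of low Col1a1 kept, p53R245W/fl minus p53fl/fl was 0.24 (adjusted p 0.651 by permutation test). Slopes along the score differed between genotypes for few genes. Against p53fl/fl, 4 of 20464 genes (0.0195%) had a lower slope in p53R172H/fl tumours and 1 gene (0.00489%) in p53R245W/fl tumours by edgeR's test of the interaction. Each of the 5 was highest in a single p53fl/fl tumour, 562 or 1512, and at most 1.6 CPM in the other p53fl/fl tumours. Phlda2, an imprinted gene that restrains growth of the placenta, was at 8.64 CPM in tumour 562 and at most 0.0152 CPM in the other 9 p53fl/fl tumours, and no gene of the cell division lists was among the 5.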

How the data were processed

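The authors deposited 1 table of raw counts for 20730 genes in 52 libraries, with no normalization of these counts. Per the submitters' processing notes, STAR and the build GRCm38 were used, and stranded mRNA libraries were made per the labels' protocols. The program that counted reads and its strand setting were not stated in any file or label. No gene had a total under 260, which shows a filter before deposit. GENCODE M21 gave symbols to 20668 identifiers.

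Tumours were ranked with a pseudocount of 1 CPM. edgeR 4.0.16 in R 4.3.3 tested counts with TMM library sizes and robust quasi-likelihood fits, after filterByExpr with a minimum count of 10, at an adjusted p (Benjamini-Hochberg) under 0.05 over all tested genes. Only the 20 tumours compared entered that fit. Standard errors were taken as the size of the log2 fold change divided by the root of the F statistic. CPM in the text uses TMM library sizes. Scores were compared between genotypes with SciPy. Labels do not say that tumours of a group came from separate mice, and p-values measure the spread between these samples. On simulated counts the test found 40% of the 100 genes given a 2-fold change and 80% of the 100 given a 4-fold change, and called 2 of 19310 tested genes falsely. The simulation drew genes independently of each other, without differences by genotype, lane or Y-linked RNA and without ranking. Its shares therefore do not give the error of the real comparison.

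Groups, members, gene lists and naming rule were chosen with earlier results of these data known. Named genes passed the threshold, a mean of 1 CPM and a difference of medians of 0.5 on the log2 scale: the 10 largest rises, 10 largest falls, 8 smallest p and up to 4 called members a list, or 2 where none was called, with some left out for length. Trp53 and Myc are always named. Other named genes were chosen after their values were seen. Alternatives included DESeq2 1.42.0 and limma 3.58.1 voom.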

Additional observations from a re-analysis of the deposited data

Results flagged for a closer look

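In 10 of 118 groups of 10 tumours, made of 59 named genes in the high and the low class, 1 tumour stood farther from its nearest neighbour than Dixon's critical value of 0.466 of the range on the log2(CPM + 1) scale. Chance gives about 1 in 20 such groups. Among high tumours, tumour 562 was highest in Dcc at 22.7 CPM (next 4.15) and in Rtl6 at 22.1 CPM (next 9.86). Tumour 1241 was highest in the neutrophil genes Ltf at 4.47 CPM (next 1.09) and Cd177 at 0.741 CPM (next 0.267). Tumour 1827 was highest in Cadps at 0.562 CPM (next 0.262) and lowest in Wif1 at 4.41 CPM (next 25.8). Among low tumours, 1431 was highest in Dcc at 0.32 CPM (next 0.0862) and 1509 lowest in the condensin gene Smc4 at 63.3 CPM (next 85.0). Tumour 383, the low tumour nearest to the middle class, was highest in Myc at 332 CPM (next 76.3) and lowest in Dcn at 76.0 CPM (next 253).

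The slope along the score differed between genotypes in 5 genes by edgeR's interaction test. Against p53fl/fl tumours, the slope in p53R172H/fl tumours was lower by -12.0 log2 units per unit of score for 5730403I07Rik (SE 1.83, adjusted p 0.00905), -7.86 for Sapcd1 (SE 1.34, adjusted p 0.0248), -5.98 for Fbxo2 (SE 1.06, adjusted p 0.0298) and -9.69 for Cuzd1 (SE 1.80, adjusted p 0.0486). In p53R245W/fl tumours it was lower by -11.1 for Phlda2 (SE 1.59, adjusted p 0.00369). Sapcd1, Fbxo2 and Phlda2 were at 8.96, 24.7 and 8.64 CPM in p53fl/fl tumour 562 and at most 0.121, 1.6 and 0.0152 CPM in the other 9 p53fl/fl tumours. 5730403I07Rik and Cuzd1 were at 7.11 and 53.2 CPM in p53fl/fl tumour 1512 and at most 0.0334 and 0.152 CPM in the other 9.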

How the results depend on the processing

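The count of 223 genes was within 1.5 times under RLE size factors, no filter, a minimum count of 50, library set as covariate, limma voom and most other scores and covariates (150 to 320 genes). It was 136 without the genotype covariate, 108 for 6 against 6 tumours, 137 for a split at the median score, 476 with TMM library sizes in the score (18 of 20 tumours shared), 54 without Cdc20 in the score, 18 with the neutrophil list as covariate, 368 with all 31 tumours in 1 fit and 745 with DESeq2, which gave no adjusted p for 2443 genes. DESeq2 called 426 higher and 319 lower. Within set R553 and within set FM/FNM/WFM/WFNM 0 genes were called by edgeR (2572 and 1118 at an unadjusted p under 0.05). Chosen after seeing the data, lane as covariate gave 51, Y-linked RNA as covariate 91, tumours without it 0, and matched repeat libraries 0. Leaving out 1 tumour gave 114 to 331. The causes of these differences were not tested. With Y-linked RNA as covariate the score slope gave 461 genes in place of 701. A minimum count of 50 left 0 genes in both interaction tests, and no filter gave 2 for p53R245W/fl.

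Signs turned for Trp53 (-0.11) and Myc (-0.94) within set FM/FNM/WFM/WFNM, for Myc in the repeat libraries (-0.56) and without tumour 1441 (-0.0072 to 0.70 over tumours left out), for Camp with the neutrophil list as covariate (0.084), and for Ddx3y (-2.14) and Uty (-1.69) with Y-linked RNA as covariate. The score of p53R172H/fl minus p53R245W/fl was -0.027 with TMM library sizes and -0.10 with tumours of low Col1a1 kept. Of 45 named genes past the threshold, 27 were called in all 20 fits that left out 1 tumour. No paired analysis was possible because the numbers in the labels name single tumours and the groups share none of them. Depth limits genes of the lowest levels, where groups hold counts of 0.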
